A study of Mus musculus with 17 samples.

Results

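The genes described here encode the proteins of the cytosolic ribosome. They were taken by name: a protein-coding gene whose symbol had the form Rps, Rpl, Rplp or Rpsa with its number belonged to the set, and Rpl22l1 was added. Of 84 symbols of that form in the count table, 3 were pseudogenes (Rpl32l, Rpl6l and Rps4l), and Rpl3 and Rpl3l were left out. That gave 79 genes, 48 of the large and 31 of the small subunit, spread over 19 chromosomes, among 31647 features in all. Ribosomal proteins with other names (such as Fau, Rack1, Rps3a1, Rps27rt and Rpl36al) are described separately, together with Rpl7l1, which takes part in large subunit assembly.

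Male wild-type C57BL/6J mice aged 8 to 11 weeks had the left anterior descending artery ligated permanently, which causes a myocardial infarction (MI) without reperfusion, or underwent sham surgery without ligation. RNA was taken 5 days later, from the infarct zone (IZ) of 9 of 12 ligated mice and from the left ventricle of 8 sham-operated mice. Each of the 17 libraries comes from the bulk tissue of a single heart. Transcripts were counted at their 3′ ends, with molecular identifiers to remove PCR duplicates, so a count is close to a molecule and does not scale with the length of the transcript.

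The ribosome reads mRNA in its small subunit and joins amino acids in its large subunit, and nearly all ribosomal proteins are needed in equal number, so cells make them in step. Their mRNAs are abundant in most cells and usually start with a C followed by a run of pyrimidines, the 5′ terminal oligopyrimidine (5′TOP) motif. The motif places their translation under the kinase mTOR and the RNA-binding protein Larp1. In the heart, cardiomyocytes make much of the RNA, and after an infarct macrophages, fibroblasts and dividing cells fill the injured area.

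The starts of a few genes show such runs, among them those of Rps27 and its paralogue Rps27l. Each line gives 30 bases around the annotated transcription start, 15 on either side, from the RefSeq start table for GRCm38.p6, 5′ to 3′ on the strand of the gene. Capitals mark the pyrimidine run at or next to the start.
Rps6, chr4:86857353-86857382, minus strand: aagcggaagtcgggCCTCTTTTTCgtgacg
Rps10, chr17:27635230-27635259, minus strand: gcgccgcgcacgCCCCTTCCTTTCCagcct
Rps18, chr17:33955651-33955680, minus strand: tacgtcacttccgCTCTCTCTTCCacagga
Rpl35, chr2:39005117-39005146, minus strand: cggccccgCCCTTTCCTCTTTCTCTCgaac
Rpl28, chr7:4792950-4792979, plus strand: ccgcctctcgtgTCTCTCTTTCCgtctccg
Rplp2, chr7:141447636-141447665, plus strand: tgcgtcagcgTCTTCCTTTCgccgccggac
Rps27, chr3:90213634-90213663, minus strand: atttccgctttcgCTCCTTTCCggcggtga
Rps27l, chr9:66946071-66946100, plus strand: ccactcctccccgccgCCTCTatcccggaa

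The run was 5 bases long at the printed start of Rps27l and 9 bases long at that of Rps27. Rps27l had 2 starts in the table, of which 1 is shown. The table held only 60 of the 79 genes (75.9%), too few for a share over the set. In the GENCODE transcripts of the same build, 29 of the 79 genes (36.7%) had a coding transcript with a C within its first 3 bases that opened a pyrimidine run of at least 5 bases on the transcript strand, against 12.6% of 21866 protein-coding genes. Annotated starts are often off by a few bases, and a missing match says only that these letters do not stand at the annotated start.

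The libraries held 1237675 to 4738307 counts. Values below are CPM, counts relative to a library size rescaled with the TMM method of edgeR, and a gene was called at an adjusted p under 0.05 in edgeR's quasi-likelihood test over 12301 genes. The tissue labels fit the heart: 8 cardiomyocyte markers summed to 66188 to 78665 CPM in sham. In the IZ these markers summed to 2799 to 29355 CPM, and all 8 were lower. The highest value belonged to IZ replicate 1, and no other IZ library exceeded 6710 CPM. The same library had 19.5% mitochondrially encoded counts, where the other IZ libraries had 4.22 to 6.78% and sham had 22.9 to 32.4%. Results that rest on IZ replicate 1 are therefore given with and without it. Because the RNA is from bulk tissue, more cells of a type and more RNA per cell cannot be told apart.

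Both subunits were higher in the IZ. Of the 79 genes, 77 had enough counts to be tested (Rpl10l and Rpl39l had not), and 70 of these were higher, 7 were not called and none was called lower. That was 90.9% of the tested genes, where 69.5% of all tested genes were called, 36.3% higher and 33.1% lower. The median log2 fold change was 0.70 (quartiles 0.57 and 0.87), equal to 1.62-fold, beside 0.054 over all tested genes. In 12 genes the log2 fold change reached 1, and in another 53 it lay between 0.5 and 1. The fold changes were close together, with an interquartile range of 0.29 on the log2 scale compared with 1.44 for all genes. All 70 called genes were called higher in each of 26 repeat fits with other scalings, filters, tests or libraries.

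**Figure D1:**
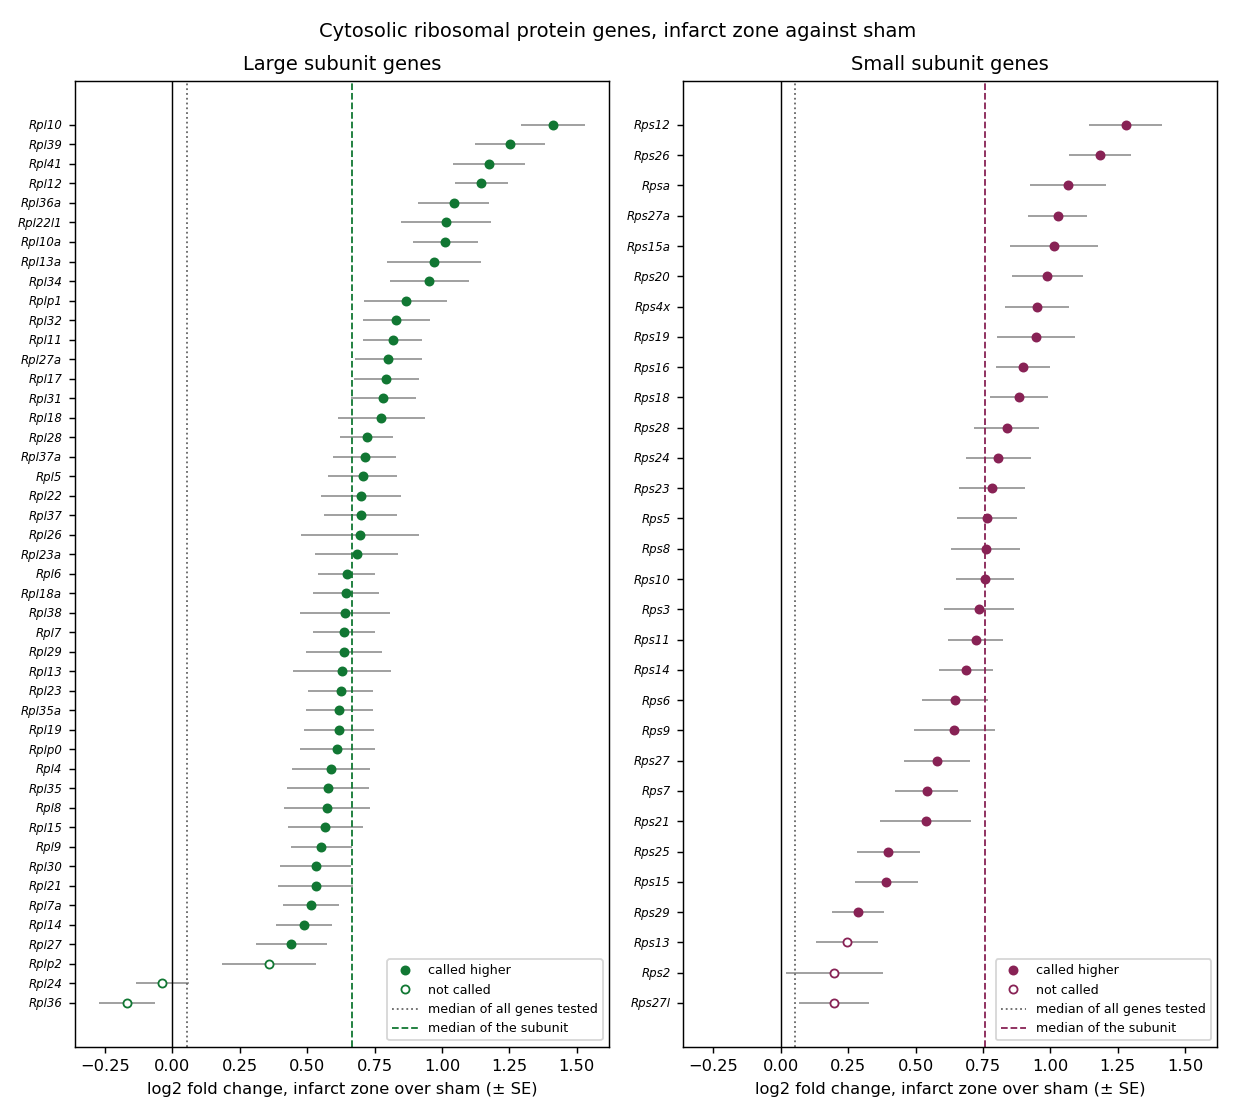
Log2 fold change in the IZ over sham (x axis) for the tested genes named on the y axis, large subunit on the left and small subunit on the right, with bars of 1 SE. Filled points were called higher, open points were not called, dashed lines mark the subunit medians (0.66 and 0.76) and dotted lines the median of all tested genes (0.054). Rpl24 and Rpl36 are the only genes left of 0 under TMM scaling.

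The size of the shift depended on the scaling. Under total counts alone the median of all genes moved from 0.054 to 1.13, and that of the ribosomal protein genes to 1.78. All 77 genes were then called higher, as were 74.6% of all tested genes, and 85.7% of all calls were higher in place of 52.3%. Their distance from all genes was 0.65 under total counts and 0.64 under TMM. The whole set took 0.896 to 1.45% of the counts in sham, with a mean of 1.15 ± 0.171% (SD, n = 8). In the IZ it took 2.12 to 4.58%, with a mean of 4.03 ± 0.753% (SD, n = 9). The lowest IZ share, 2.12%, was that of replicate 1, and it still lay above every sham library. Without that library the IZ mean was 4.27 ± 0.239% (SD, n = 8). With mitochondrially encoded counts left out of the totals, the means over all libraries were 1.58% in sham and 4.30% in the IZ.

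Library by library, the median gene of the set lay between −0.21 and 0.20 of its sham mean on the log2 CPM scale in sham. In the IZ it lay 0.27 above the sham mean in replicate 1 and 0.68 to 0.95 above it in the other 8 libraries. All IZ libraries thus exceeded all sham libraries, with replicate 1 nearest to sham. The genes of the set also varied little within a group. The median SD of log2 CPM was 0.207 in sham and 0.224 in the IZ, beside 0.352 and 0.358 over all tested genes, which include many with few counts. The order of the genes by mean level was nearly the same in both groups, with a Spearman rho of 0.966 across the 77 genes, which share libraries and are not independent.

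**Figure D2:**
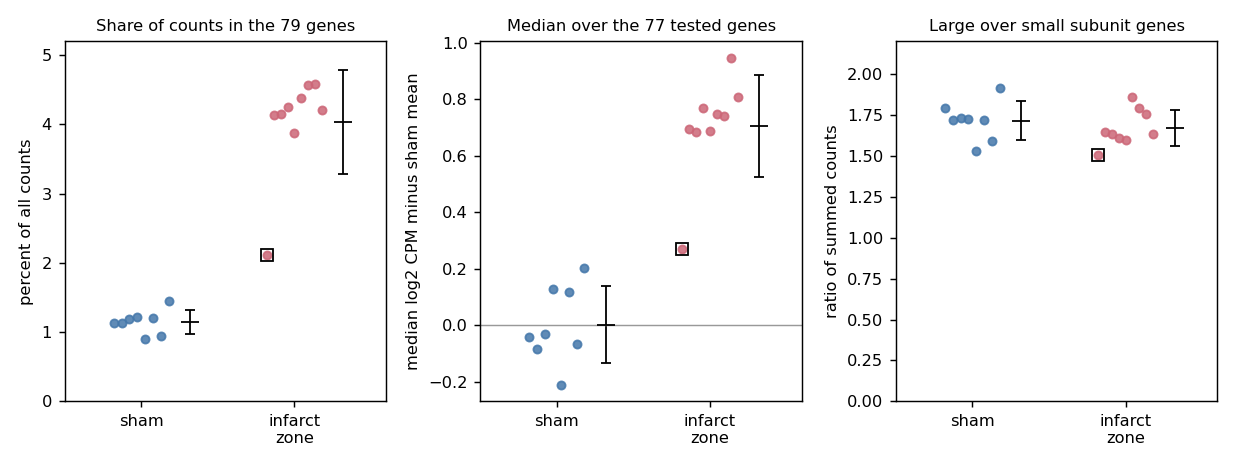
Left, percent of all counts in the 79 genes, centre, the median over the 77 tested genes of log2 CPM minus the sham mean, and right, summed counts of large over small subunit genes. Points are libraries (8 sham, 9 IZ), the square marks IZ replicate 1, and bars give the mean and SD. IZ replicate 1 is the lowest IZ library in all 3 panels.

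The large and the small subunit moved together. Among 46 tested large subunit genes 43 were higher (93.5%), with a median log2 fold change of 0.66. Among 31 small subunit genes 27 were higher (87.1%), with a median of 0.76, beside 36.3% of all tested genes. Summed counts of large over small subunit genes gave a ratio of 1.72 ± 0.118 in sham (SD, n = 8, range 1.53 to 1.92) and 1.67 ± 0.111 in the IZ (SD, n = 9, range 1.51 to 1.86). The ratios of the groups overlapped over most of their range, and with the counts of near-identical gene copies added they were 1.33 in both.

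In 33 of the 77 genes (42.9%) every IZ library lay above every sham library, against 16.6% of all tested genes. These were 14 of 46 large and 19 of 31 small subunit genes. IZ replicate 1 was the lowest IZ library in 55 of the 77 genes, and in 22 genes, 19 large and 3 small, it alone overlapped sham. Without it 55 genes did not overlap, 33 large (71.7%) and 22 small (71.0%), beside 20.6% of all tested genes. This count without replicate 1 was added after seeing the data.

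Markers of several other cell types were higher in the same libraries. Fibroblast markers were higher in 5 of 6 genes, and their sum ran from 1463 to 2860 CPM in sham and from 12250 to 20172 CPM in the IZ. All 6 macrophage markers were higher, with sums of 371 to 537 CPM and 2131 to 5482 CPM. The 4 proliferation markers rose from sums of 3.31 to 11.8 CPM to 73.9 to 147 CPM, and Cdk1 and Ccnb1 each had no count in at least 1 library. All 3 neutrophil markers were higher too (2.35 to 11.6 CPM in sham, 14.0 to 207 CPM in the IZ). IZ replicate 1 had the lowest fibroblast, macrophage, neutrophil and proliferation sums of its group. Of the endothelial markers 1 of 4 was lower and none higher, no haemoglobin gene was called, and none of the 4 lymphocyte markers had enough counts. The part of these cell types in the result was not tested.

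The largest rise was that of Rpl10 (ENSMUSG00000008682, chrX:74270812-74273135), which completes the large subunit late in its assembly next to the catalytic centre. In sham it ran from 59.6 to 93.4 CPM with a median of 79.7, and in the IZ from 161 to 253 CPM with a median of 212. The groups did not overlap. The log2 fold change was 1.41 ± 0.12 (SE, edgeR adjusted p 4.86e-10).

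Rps12, a protein of the small subunit's beak, followed. It had 29.2 to 55.2 CPM in sham (median 47.6) and 70.0 to 124 CPM in the IZ (median 112), with IZ replicate 1 at the bottom of its group. All 9 IZ libraries were above sham, and the log2 fold change was 1.28 ± 0.13 (SE, edgeR adjusted p 1.49e-08). Rpl39, which lines the tunnel through which the new protein leaves, went from 217 to 291 CPM in sham (median 245) to 422 to 752 CPM in the IZ (median 607). Its log2 fold change was 1.25 ± 0.13 (SE, edgeR adjusted p 1.18e-08), and the groups did not overlap.

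Rps26, which touches the mRNA where it leaves the small subunit, had 134 to 174 CPM in sham (median 162) and 262 to 412 CPM in the IZ (median 370). The groups stood apart, with a log2 fold change of 1.18 ± 0.11 (SE, edgeR adjusted p 3.64e-09). Rpl41, the smallest protein of the ribosome, ran from 254 to 351 CPM in sham (median 315) and from 504 to 878 CPM in the IZ (median 697), again without overlap. Its log2 fold change was 1.17 ± 0.13 (SE, edgeR adjusted p 4.95e-08).

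The other called genes lay between these extremes and Rps29, a zinc-binding protein of the small subunit. Rpl12, part of the base of the stalk, came next below Rpl41, with 25.9 to 34.2 CPM in sham (median 31.9) and 56.4 to 75.9 CPM in the IZ (median 72.9), at a log2 fold change of 1.15 ± 0.098 (SE, edgeR adjusted p 5.43e-10). Its groups did not overlap. Rps29 had the smallest called change, 0.29 ± 0.096 on the log2 scale (SE, edgeR adjusted p 0.0114). It ran from 221 to 261 CPM in sham (median 241) and from 261 to 326 CPM in the IZ (median 297), so that even here each IZ library was above sham, though by little. Rpl12 and Rps29 were picked after their values were seen.

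**Figure D3:**
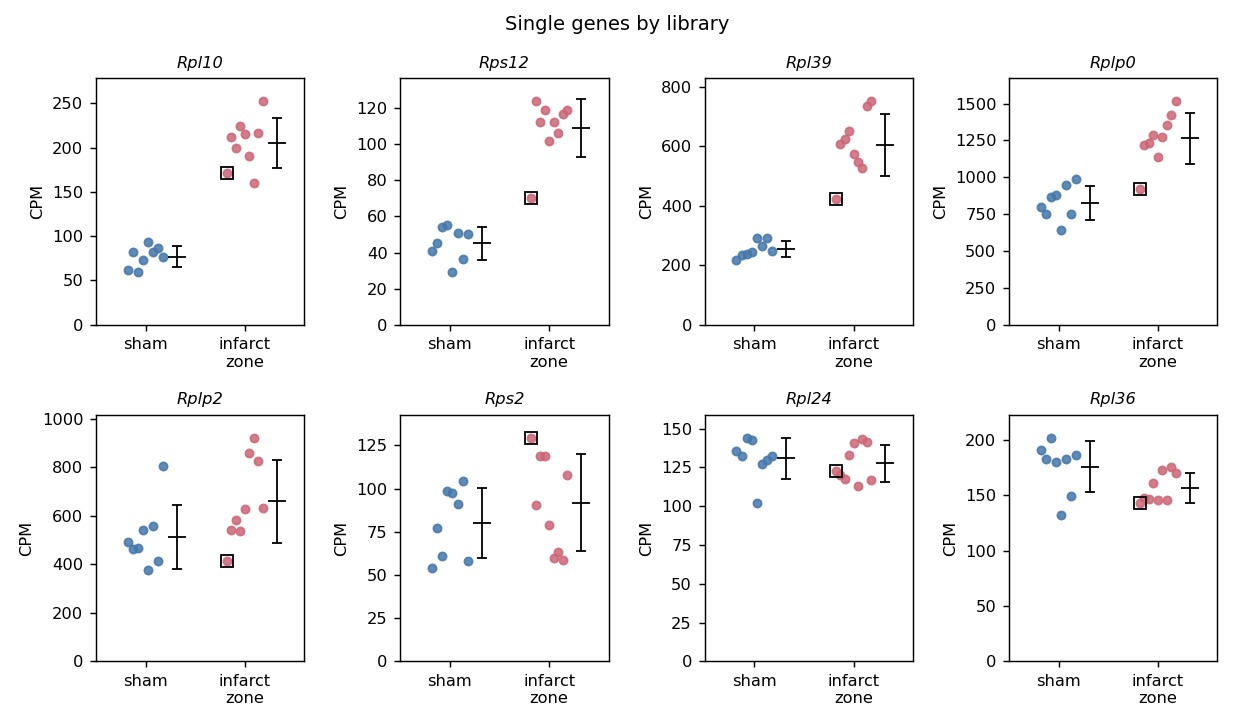
CPM (y axis, from 0) of 8 genes in each library, with sham on the left and the IZ on the right of each panel. Points are libraries, squares mark IZ replicate 1, and bars give the mean and SD. Rpl10, Rps12 and Rpl39 do not overlap between the groups, Rplp0 overlaps only through IZ replicate 1, and Rplp2, Rps2, Rpl24 and Rpl36 overlap widely.

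The acidic stalk of the large subunit, which recruits the elongation factors, is made of Rplp0, Rplp1 and Rplp2. Rplp0 anchors the stalk and ran from 642 to 990 CPM in sham (median 830) and from 918 to 1519 CPM in the IZ (median 1276). Only IZ replicate 1 fell within the sham range, and the log2 fold change was 0.61 ± 0.14 (SE, edgeR adjusted p 0.000457). Rplp1 went from 828 to 1223 CPM in sham to 1279 to 2355 CPM in the IZ (median 1823), every IZ library above sham. Its log2 fold change was 0.87 ± 0.15 (SE, edgeR adjusted p 2.53e-05).

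Rplp2, the partner of Rplp1 in the stalk, was not called. Sham libraries held 377 to 805 CPM (median 480) and IZ libraries 415 to 923 CPM (median 628), and only 3 of 9 exceeded every sham library. Its log2 fold change was 0.36 ± 0.18 (SE, edgeR adjusted p 0.0714), and it was called higher in 8 of the 26 repeat fits. Whether it changed less than Rplp1 was not tested.

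Members that often serve as reference genes in PCR changed as well. Besides Rplp0 these are Rpl13a, Rpl32 and Rps18, with log2 fold changes of 0.97 ± 0.17, 0.83 ± 0.12 and 0.88 ± 0.11 (SE). Rpl13a had 271 to 553 CPM in sham (median 434) and 463 to 1125 CPM in the IZ (median 775), with 8 of 9 IZ libraries above sham (edgeR adjusted p 3.06e-05). Rpl32 ran from 394 to 497 CPM in sham and from 550 to 927 CPM in the IZ without overlap (edgeR adjusted p 2.92e-06). Rps18, whose start is printed above, had 106 to 154 CPM in sham and 196 to 260 CPM in the IZ, also without overlap (edgeR adjusted p 1.46e-07).

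Several members have well-known roles outside the ribosome. Rpl5 and Rpl11 form a particle with 5S ribosomal RNA that binds Mdm2 and so steadies p53. Rpl5 ran from 109 to 185 CPM in sham (median 136) and from 145 to 269 CPM in the IZ (median 231), with a log2 fold change of 0.71 ± 0.13 (SE, edgeR adjusted p 3.51e-05) and 8 of 9 IZ libraries above sham. Rpl11 ran from 43.9 to 63.3 CPM in sham (median 56.8) and from 74.7 to 116 CPM in the IZ (median 97.6). It did not overlap, at a log2 fold change of 0.82 ± 0.11 (SE, edgeR adjusted p 5.92e-07). Whether the partners differed in their change was not tested.

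Rps6, the substrate of the S6 kinases downstream of mTOR, had 64.1 to 101 CPM in sham (median 70.2) and 90.8 to 137 CPM in the IZ (median 129). Its log2 fold change was 0.65 ± 0.12 (SE, edgeR adjusted p 6.24e-05), with 7 of 9 IZ libraries above sham. Rps19, the gene most often mutated in Diamond-Blackfan anaemia, ran from 108 to 198 CPM in sham and from 211 to 447 CPM in the IZ. Its groups did not overlap, with a log2 fold change of 0.95 ± 0.15 (SE, edgeR adjusted p 3.85e-06).

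Rpl38, known for its part in the translation of Hox mRNAs, had 67.2 to 152 CPM in sham and 101 to 221 CPM in the IZ. IZ replicate 1 was the only IZ library within the sham range, and the log2 fold change was 0.64 ± 0.17 (SE, edgeR adjusted p 0.00167). Rps27a, made as a fusion with ubiquitin, ran from 84.7 to 111 CPM in sham and from 146 to 228 CPM in the IZ, at a log2 fold change of 1.03 ± 0.11 (SE, edgeR adjusted p 1.85e-08). Rpsa, also called the laminin receptor, went from 249 to 365 CPM in sham to 416 to 898 CPM in the IZ, at 1.07 ± 0.14 on the log2 scale (SE, edgeR adjusted p 5.68e-07). Neither of the last genes overlapped between the groups.

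Among the 7 genes that were not called, Rpl36 and Rpl24 stood lowest. Rpl36, a protein of the large subunit, ran from 132 to 202 CPM in sham (median 183) and from 143 to 175 CPM in the IZ (median 148). The IZ range lay within the sham range, and the log2 fold change of −0.17 ± 0.10 (SE, edgeR adjusted p 0.154) turned to 0.90 under total counts, where it was called higher, below the 1.13 of the median gene there. It passed the threshold as lower, at −0.23, only without sham replicate 5.

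Rpl24, which bridges the subunits, ran from 102 to 144 CPM in sham (median 133) and from 113 to 143 CPM in the IZ (median 123). The groups overlapped nearly in full, with a log2 fold change of −0.037 ± 0.098 (SE, edgeR adjusted p 0.752) that was above 0 under several other settings and ran from −0.091 to 0.0025 when single libraries were left out.

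Rps2 lies at the entry of the mRNA channel. It had 54.2 to 104 CPM in sham (median 84.2) and 58.8 to 130 CPM in the IZ (median 90.4), a log2 fold change of 0.20 ± 0.18 (SE, edgeR adjusted p 0.336). Leaving out single libraries moved the value both ways. It was 0.098 without IZ replicate 1, 0.12 without sham replicate 1 and 0.13 without sham replicate 8. It was 0.28 without IZ replicate 6 or 8 and 0.27 without IZ replicate 7. Rps2 was called in none of these fits. Rps13 ran from 38.3 to 54.9 CPM in sham (median 49.8) and from 39.2 to 67.7 CPM in the IZ (median 59.8), and 7 of 9 IZ libraries were above sham. Its log2 fold change was 0.25 ± 0.11 (SE, edgeR adjusted p 0.0624), and it was called higher in 5 of the 26 repeat fits. Rps27l is described with its parent gene below.

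Reads of many members can also fall on processed pseudogenes. By sequence, 60 of the 79 genes had at least 1 annotated near-identical copy (95% identity over at least 100 of the last 500 bases). The copies annotated as pseudogenes together held 125% as many counts as the genes themselves. Only these pseudogene copies enter the counts below. For Rps12 the copies held 1869% and for Rpl23a 2054% of the gene's own counts, so the levels of such genes are uncertain. Adding the copies' counts gave 71 genes higher and moved the log2 fold change by 0.035 in the median gene and by at most 0.15. The 19 genes without a copy had 17 of 18 tested members higher (94.4%), with a median log2 fold change of 0.73. Those with copies had 53 of 59 higher (89.8%) and a median of 0.65, beside 36.3% of all tested genes higher.

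Genes with and without a 5′TOP run at the annotated start had nearly equal medians. The median log2 fold change was 0.70 in the 29 tested genes with a run in their GENCODE transcripts and 0.69 in the 48 tested genes without one. The split depends on where the start is annotated. Rpl22l1 counted as without a run, yet had a pyrimidine run of 10 bases next to its RefSeq start. The medians therefore cannot show whether the motif matters.

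Some ribosomal proteins have a paralogue, in some cases one that can take their place, and the ratio within a library is free of its scaling. Of 7 pairs, 5 had enough counts, and each was compared in an exact permutation of the group labels, two-sided (24310 assignments), with p adjusted over the 5. For these pairs the sham and IZ values are log2 ratios of paralogue over parent.

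Rpl22l1 is a paralogue that Rpl22 is known to hold down in other cells. It ran from 37.6 to 81.6 CPM in sham (median 66.4) and from 71.8 to 164 CPM in the IZ (median 145), a log2 fold change of 1.01 ± 0.17 (SE, edgeR adjusted p 1.02e-05). Rpl22 rose by 0.70 ± 0.15 (SE, edgeR adjusted p 0.000207), from 245 to 453 CPM in sham to 374 to 746 CPM in the IZ. Their log2 ratio had a median of −2.50 in sham (−3.26 to −1.85) and −2.29 in the IZ (−2.86 to −1.77), and the difference in means of 0.30 was within the spread (exact permutation p 0.161). It was 0.19 without sham replicate 2 and ran up to 0.40 without sham replicate 5, and no fit that left out a library passed the threshold.

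Rps27l, a p53 target that differs from Rps27 by a few residues, was not called under TMM scaling, where its parent was. Rps27 had 89.2 to 140 CPM in sham (median 113) and 142 to 216 CPM in the IZ (median 169), without overlap, at a log2 fold change of 0.58 ± 0.12 (SE, edgeR adjusted p 0.000234). Rps27l had 106 to 150 CPM in sham (median 125) and 109 to 192 CPM in the IZ (median 146), at a log2 fold change of 0.20 ± 0.13 (SE, edgeR adjusted p 0.182). It was called higher in 2 of the 26 repeat fits, with upper quartile scaling at 0.31 (edgeR adjusted p 0.041) and with total counts alone. Rps27rt, a ribosomal protein gene outside the set with an Rps27 name, had more counts than Rps27. Its mean level was 430 CPM over the sham libraries, and 619 CPM over those of the IZ. The ratio used Rps27 alone, and Rps27l against Rps27 and Rps27rt together was not tested. The log2 ratio of Rps27l to Rps27 had a median of 0.16 in sham (−0.18 to 0.64) and −0.36 in the IZ (−0.81 to 0.38). The mean fell by 0.41 (exact permutation p 0.0275, adjusted 0.0343), with 5 of 9 IZ libraries below every sham library. The call was lost in 9 fits that left out 1 library, sham replicates 2, 3, 5 and 7 and IZ replicates 1, 5, 6, 7 and 8, where the adjusted exact permutation p was 0.0526 to 0.0708.

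The other 3 pairs have a partner outside the set. Rpl7l1, which takes part in large subunit assembly, was at 40.8 ± 5.41 (SD, n = 8) in sham and 39.6 ± 5.53 (SD, n = 9) in IZ libraries on the CPM scale, while Rpl7 rose by 0.64 ± 0.11 on the log2 scale (SE, edgeR adjusted p 3.16e-05). Their log2 ratio had a median of −1.50 in sham (−1.92 to −1.09) and −2.15 in the IZ (−2.47 to −1.997), and all 9 IZ libraries lay below sham. The mean fell by 0.69 (exact permutation p 8.23e-05, the smallest this test can give, adjusted 0.000411).

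Rpl36al, a near copy of Rpl36a, rose by 0.57 ± 0.16 (SE, edgeR adjusted p 0.0029) and Rpl36a by 1.04 ± 0.13 (SE, edgeR adjusted p 2.52e-07). Their log2 ratio had a median of 1.38 in sham (1.08 to 1.78) and 0.92 in the IZ (0.67 to 1.26). The mean fell by 0.45 (exact permutation p 0.00156, adjusted 0.00261). The groups overlapped, with 7 of 9 IZ libraries below sham. Rps4l is annotated as a pseudogene of Rps4x, so its counts may in part be reads of the parent. Rps4x rose by 0.95 ± 0.12 (SE, edgeR adjusted p 1.91e-07), from 214 to 295 CPM in sham to 361 to 565 CPM in the IZ. The log2 ratio of Rps4l to Rps4x had a median of −3.26 in sham (−3.63 to −3.06) and −3.84 in the IZ (−4.48 to −3.59), and its mean fell by 0.66 (exact permutation p 0.000165, adjusted 0.000411).

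**Figure D4:**
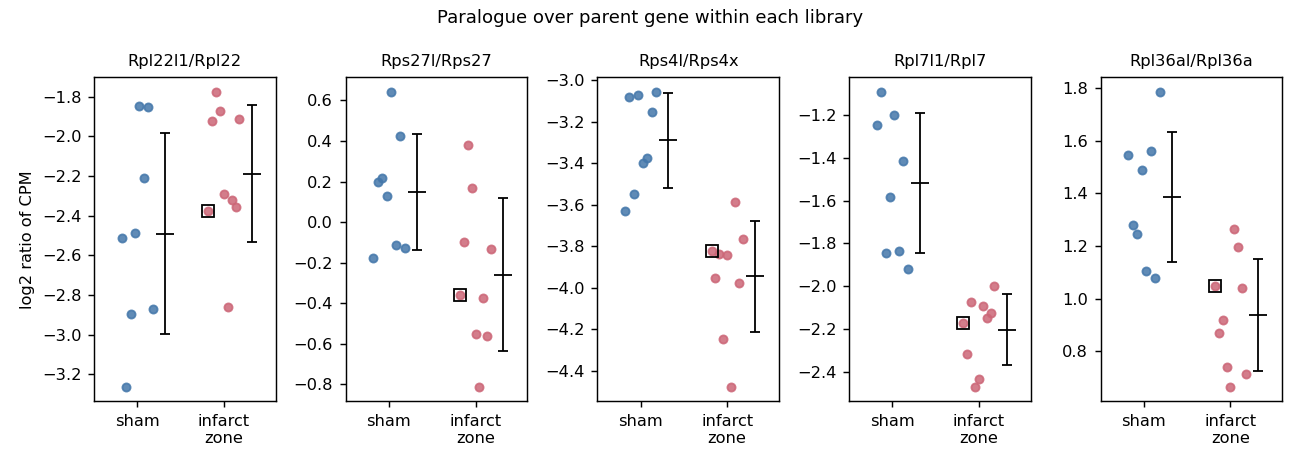
Log2 ratio of CPM (y axis) of a paralogue over its parent gene in each library, for 5 pairs, sham on the left and the IZ on the right of each panel. Points are libraries, squares mark IZ replicate 1, and bars give the mean and SD. all 9 IZ values of Rpl7l1/Rpl7 lie below sham, while Rpl22l1/Rpl22 overlaps over most of its range.

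The paralogues Rpl10l, a retrogene known from testis, and Rpl39l had too few counts. Rpl10l had 0 counts in the 8 sham libraries and 1 count in all IZ libraries together. Rpl39l had 7 counts in sham, in 4 of 8 libraries with at most 4 in each, and 42 counts in the IZ, in 8 of 9 libraries with at most 11. The count filter kept both out of the test. In the fit without a filter Rpl39l had a log2 fold change of 1.34 ± 0.68 (SE, edgeR adjusted p 0.121), and the Wald test of DESeq2 gave 1.36 ± 0.75 (SE, adjusted p 0.111).

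Most ribosomal proteins whose names fall outside the pattern were higher too. Of 6 tested, counting Rpl7l1, which takes part in large subunit assembly, 5 were higher (83.3%), beside 36.3% of all tested genes. Their median log2 fold change was 0.58. Rack1, the scaffold on the head of the small subunit, was highest at 1.03 ± 0.11 (SE, edgeR adjusted p 3.89e-08), with sham at 349 ± 34.7 CPM (SD, n = 8) and the IZ at 711 ± 63.9 CPM (SD, n = 9). Rpl7l1 was the one not called, at −0.038 ± 0.11 (SE, edgeR adjusted p 0.771).

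Other genes of ribosome production and translation moved in both directions, as did all tested genes, of which 36.3% were higher and 33.1% lower. Of 66 tested ribosome biogenesis genes 17 were higher (25.8%) and 16 lower (24.2%), with a median log2 fold change of 0.15. Under total counts alone 60 were higher and none lower, on a scale where the median of all genes was 1.13, and with a minimum mean of 50 counts 10 were lower. They ran from Polr1b, the second largest subunit of RNA polymerase I, at −1.10 ± 0.19 (SE, edgeR adjusted p 1.50e-05) to Taf1d, a part of the polymerase I selectivity factor, at 1.23 ± 0.19 (SE, edgeR adjusted p 3.66e-06). Of 8 chaperones and importers of ribosomal proteins 2 were higher and 3 lower, at a median of −0.30, from Ipo7 at −0.58 to Nap1l1 at 0.53, and under total counts alone all 8 were higher. Riok2 has no feature of its own and Ddx51 was not tested.

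Of 36 translation initiation factors 7 were higher (19.4%) and 13 lower (36.1%), beside 36.3% and 33.1% of all tested genes. Their median log2 fold change was −0.020. Upper quartile scaling gave 11 higher, and total counts alone gave 32 higher and 1 lower. The cap-binding protein Eif4e was lowest, with sham at 110 ± 19.6 CPM (SD, n = 8) and the IZ at 38.0 ± 10.03 CPM (SD, n = 9), a log2 fold change of −1.53 ± 0.15 (SE, edgeR adjusted p 3.74e-09). The poly(A)-binding protein Pabpc1 was highest, with sham at 107 ± 20.9 CPM (SD, n = 8) and the IZ at 395 ± 87.8 CPM (SD, n = 9), a log2 fold change of 1.88 ± 0.16 (SE, edgeR adjusted p 3.62e-10). Neither overlapped between the groups.

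Among 8 elongation factors 3 were higher and 2 lower, and under total counts alone 7 were higher and 1 lower. Eef1a1, which brings aminoacyl-tRNA to the ribosome in most cells, rose from 339 ± 62.2 CPM (SD, n = 8) to 1181 ± 172 CPM (SD, n = 9), a log2 fold change of 1.80 ± 0.15 (SE, edgeR adjusted p 2.98e-10). Its muscle and neuron form Eef1a2 fell from 645 ± 115 CPM (SD, n = 8) to 88.0 ± 108 CPM (SD, n = 9), a log2 fold change of −2.87 ± 0.39 (SE, edgeR adjusted p 6.53e-07), and all 9 IZ libraries were below sham. The SD of Eef1a2 in the IZ exceeded its mean there, so the mean does not describe a typical IZ library. Such a spread can come from 1 high library or from several, and values without IZ replicate 1 are not given here.

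A list of 21 genes outside the ribosome whose RNAs are known to start with a 5′TOP motif had 15 higher (71.4%) and 1 lower (4.8%). Of all tested genes 36.3% were higher and 33.1% lower. The median log2 fold change of the list was 0.63. It repeats genes of the lists above, among them Eef1a1, Eef1b2, Eef1g, Npm1, Pabpc1, Eif4b and Eif3e, so its calls are not separate from theirs. The list joins different kinds of gene. All 6 noncoding host genes of small nucleolar RNAs (Gas5, Snhg1, Snhg5, Snhg6, Snhg8 and Snhg12) were higher, with a median of 0.96, and of the 15 protein-coding genes 9 were higher and 1 lower, with a median of 0.26. This division was made after the values were seen. The highest was Pabpc1 and the lowest Naca, which shields new proteins at the ribosome, at −0.29 ± 0.11 (SE, edgeR adjusted p 0.0238). No gene of the list was called lower in 9 of the 26 repeat fits, which include those without sham replicate 6 and without IZ replicates 2, 3, 4 or 9.

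Of 17 tested regulators of these RNAs 2 were higher (11.8%) and 8 lower (47.1%), beside 36.3% and 33.1% of all tested genes. Their median was −0.20. The counts of these regulators were unsteady. The lower calls numbered 4 with upper quartile scaling, without a filter and with a minimum mean of 50 counts, 5 without IZ replicate 2, 5 or 8, and none under total counts alone, where 15 were higher. The higher calls numbered 1 without sham replicate 2, 4, 5, 6 or 7 and without IZ replicate 4 or 9. Tsc2, a brake on mTOR, was lowest at −1.28 ± 0.19 (SE, edgeR adjusted p 1.86e-06), and Myc, which drives transcription of ribosome genes, highest at 1.72 ± 0.29 (SE, edgeR adjusted p 1.60e-05), with sham at 2.49 ± 1.39 CPM (SD, n = 8) and the IZ at 8.38 ± 2.47 CPM (SD, n = 9). Mtor itself was called lower as well, at −0.93 ± 0.11 (SE, edgeR adjusted p 1.62e-07), with all 9 IZ libraries below sham. Because the list holds both mTOR and brakes on it, the calls do not give a direction for mTOR activity, which was not tested. Rps6kb2 has no feature of its own and Mycn was not tested.

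The mitochondrial ribosome, whose proteins are encoded by other nuclear genes, moved the other way. Of 77 tested genes 75 were lower (97.4%), beside 33.1% of all tested genes. None was called higher by edgeR under TMM (1 without sham replicate 8 or IZ replicate 1), and the median log2 fold change was −1.28. Under total counts alone 34 were lower and 16 higher, with a median of −0.22 beside the 1.13 of all genes. The values ran from Mrps35 at −2.69 ± 0.14 (SE, edgeR adjusted p 4.60e-13) to Mrpl52 at 0.25 ± 0.13 (SE, edgeR adjusted p 0.0907).

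**Figure D5:**
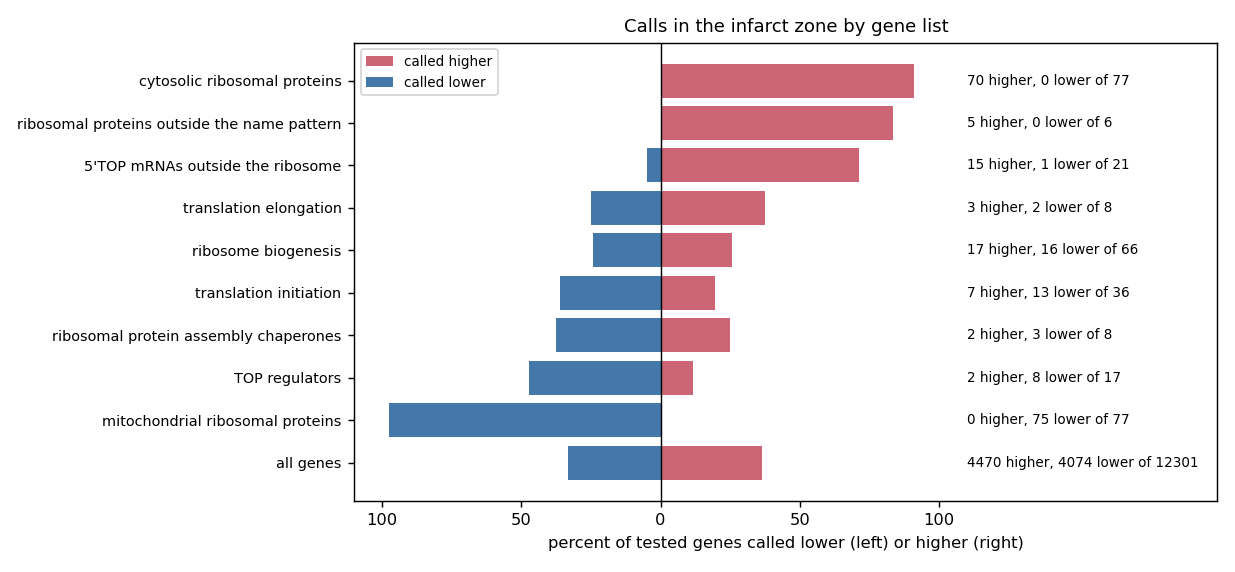
Percent of tested genes called lower (left of 0) or higher (right of 0) in the IZ at an edgeR adjusted p under 0.05, for each gene list (y axis), with counts at the right. Cytosolic ribosomal proteins reach 90.9% higher, mitochondrial ribosomal proteins are nearly all lower, and all 12301 tested genes split into 36.3% higher and 33.1% lower.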

How the data were processed

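MACE 3′ end libraries were made from total RNA of the left ventricle of 8 sham-operated mice and of the infarct zones of 9 mice. The authors trimmed reads with Cutadapt 4.6, mapped them to mm10 and counted them per gene with HTSeq after removing PCR duplicates by molecular identifiers. Bowtie2 and DESeq2 stand in the submitters' processing notes. The deposited values are raw counts, without normalization. The annotation release and the treatment of multi-mapped reads are not given in the sources used here.

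Identifiers were joined to GENCODE for GRCm38 (31554 of 31647 matched, and 35 were merged features). Genes that passed filterByExpr (minimum 10 counts) were tested in edgeR 4.0.16 (R 4.3.3) with TMM scaling (factors 0.616 to 1.53), no covariates and Benjamini-Hochberg adjustment over 12301 genes. Log2 CPM used a prior count of 1. Near-identical copies were sought with BLAST 2.17.0, and only those annotated as pseudogenes were added to the counts. Exact permutation used SciPy 1.17.1. The fit was tested on simulated data.

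The genes, lists and tests were chosen with earlier results of these data known. Named genes were the members with the 5 largest and the 5 smallest log2 fold changes with a mean of at least 10 CPM, paralogue pairs, stalk and PCR reference genes, genes with known roles outside the ribosome, genes not called or not tested, and the extremes of each other list. The fit was repeated with size factors from DESeq2, with upper quartile scaling and with total counts alone, by the DESeq2 1.42.0 Wald test, unfiltered, with a minimum mean of 50 counts, and with removal of mitochondrial features, added copies, a replicate block and the omission of each library. Ratios were also computed with a prior count of 5 and compared by medians. No library was a copy of another. Library totals of 1237675 to 4738307 counts left every tested gene of the set at least 31 counts in each library. The values of some genes that met the rule for named genes are not reported here.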

Additional observations from a re-analysis of the deposited data

Results flagged for a closer look

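A gap test for outlying samples was applied to 72 groups of values, and chance alone flags about 1 in 20 of them. It marked 10 values, 9 of them from IZ replicate 1. In that library log2 CPM stood below the rest of the IZ for Rps12 (6.14), Rpl22 (8.55), Rps4x (8.50), Rpl32 (9.10), Rpl5 (7.18), Rps19 (7.72) and Rpl38 (6.67). The share of counts in ribosomal protein genes (2.12%) and their median log2 difference from the sham mean (0.27) stood apart as well. The same library had the highest mitochondrial share (19.5%) and cardiomyocyte marker sum (29355 CPM) of the IZ, whose part in these values was not tested. The last value was Rpl24 in sham replicate 5 (log2 CPM 6.68), below the other sham libraries. Sham replicate 5 was the lowest sham library in 40 of the 77 genes.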

How the results depend on the processing

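The 70 higher calls held in all 26 alternatives, and the count of higher genes was 70 to 71 when single libraries were left out, with medians of 0.66 to 0.74. Under total counts alone the medians were 1.78 for the set, 1.75 for the large and 1.84 for the small subunit, and of the other translation lists together (44 higher, 43 lower of 149) 136 were higher and 2 lower. Upper quartile scaling moved the median of all genes to 0.17 and left 28 of these genes lower, as did the fit without a filter (28). Leaving out a library gave 0 to 1 genes of the set lower, and 0 to 1 of the large subunit (Rpl36, without sham replicate 5). Leaving out IZ replicate 1 raised the genes without overlap from 33 to 55 and those of the large subunit from 14 to 33. Rpl24, never called except under total counts (1.03), was above 0 with upper quartile scaling (0.0742), no filter (0.0172), added copies (0.0459), the replicate block (0.000105) and without IZ replicates 3 (0.0013) or 6 (0.0025), and ran from −0.091 to 0.0025 when single libraries were left out. Rpl36 was at 0.90 under total counts. With mitochondrial features removed the mean share of counts was 1.58% in sham and 4.30% in the IZ, a ratio of 2.73 in place of 3.51. With copies added it was 2.64% in sham and 8.98% in the IZ. Copies brought the subunit ratio to 1.33 in sham and 1.33 in the IZ. The Rps27l to Rps27 difference ran from −0.49 to −0.34 when single libraries were left out. With the replicate number as a block, without IZ replicate 9, 70 genes were higher at a median of 0.71. The numbers do not pair the samples: 1 of 8 same-numbered pairs had deviations correlated above 0.1 (−0.22 to 0.13), and 1 sham library correlated best with its own number. The cause of these shifts was not tested.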
